A study of Mus musculus with 7 samples.

Results

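The 79 genes described here are named for proteins of the cytosolic ribosome, the particle that makes almost all cellular protein from messenger RNA. They were taken by name from the 53656 gene rows of each count file: all rows named Rpl or Rps with a number and at most 1 of the letters a, x or l, together with the stalk proteins Rplp0, Rplp1 and Rplp2 and the laminin receptor Rpsa. Of 81 such rows, 79 had at least 10 counts in at least 3 libraries, 47 of the large and 32 of the small subunit. The other 2, Rpl3l and Rpl10l, are the copies of Rpl3 and Rpl10 known from striated muscle and testis. Rpl3l had 10, 0, 0 and 2 counts in the libraries without SMARTA and 0, 0 and 0 with SMARTA. Rpl10l had at most 1 count in any library.

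RNA was measured in OT1 cells, CD8 T cells with a transgenic receptor for an ovalbumin peptide, which were purified by flow cytometry for CD8 and CD45.1 out of tumours grown from the mouse melanoma line B16-OVA-GP61. In 4 libraries the tumours came without SMARTA cells, and in 3 they came with them; a SMARTA cell is a CD4 T cell whose transgenic receptor recognises GP61. Both groups share the tumour line and the OT1 receptor. The question in the title is how CD4 T cells bear on the reprogramming of CD8 T cells specific for a tumour. Host strain, age, sex and time are not in the labels. Nor is it stated that each library is from its own mouse, and the p-values reflect only how far these libraries spread, technical spread included. In bulk samples like these, fewer cells of a type and less RNA per cell cannot be told apart.

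Libraries held between 38092722 and 49438357 counts. Levels are in CPM, counts scaled to library size. The smallest level that could be told from 0, taken as 3 counts, was 0.0607 to 0.0788 CPM, for counting error only. The 8 genes listed as CD8 T cell markers were counted in all 7 libraries and summed to 10069 to 13705 CPM. This sum overlapped between the groups, but Cd8b1 and Cd2 did not. Cd8b1 was at 1347 to 1927 CPM without and 1949 to 2358 CPM with SMARTA. Cd2 was at 836 to 1085 CPM without and 1188 to 1590 CPM with SMARTA. Replicate 1 with SMARTA stood apart by its erythroid markers: all 8 had counts there and summed to 4977 CPM, against 31.0 to 251 CPM in the other 6 libraries, where 7 or 8 of the 8 had counts. The 7 fibroblast and endothelial markers summed to 89.5 to 136 CPM without and 150.2 to 209 CPM with SMARTA, most of it Pecam1, and the 6 neutrophil markers to 2.82 to 31.4 and 0.984 to 2.05 CPM, with Elane at 0 in all 7 libraries and Mpo in 6. In both sums the groups did not overlap. Of the single markers in these lists only Pecam1 separated them, at 82.5 to 116 CPM without and 137 to 186 CPM with SMARTA. The part of both lists in the results below was not tested. The sums of the macrophage and monocyte (30.3 to 225 CPM), B cell (4.98 to 59.2), NK cell (15.9 to 102) and CD4 T cell lists (264 to 812) overlapped between the groups, as did that of the melanoma list (6.70 to 68.4). Most of the CD4 T cell sum was Ctla4, at 167 to 707 CPM, while Cd4 itself was at 0.659 to 8.09 CPM. In that list only Cd40lg did not overlap, at 26.2 to 68.1 CPM without and 88.1 to 101 CPM with SMARTA.

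A cytosolic ribosome joins a small subunit, which reads the message, to a large subunit, which forms the peptide bond. Most of its proteins are needed in equal numbers, and in vertebrates most of their messages share a terminal oligopyrimidine (TOP) tract, a C at the first base followed by a run of pyrimidines, through which the kinase complex mTORC1 and the RNA-binding protein Larp1 set how much of the message is translated. Activated and dividing T cells are known for a large output of ribosomes. A count of messages shows nothing of that translational step.

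The start-site sequences below were searched for the TOP tract. They run from 10 bases before to 20 bases from the annotated start, with every run of a C and at least 4 pyrimidines that begins within 10 bases of that start in capitals; RefSeq gives them on GRCm38.p6. Rps6, Rps27, Rpl28 and Rpl15 have such a run at the annotated start itself, and Rps27l, Rplp0 and Rpl10 do not. Whether these messages begin at the annotated base was not tested, so a gene without a run there is not shown to lack a tract.
Rps6: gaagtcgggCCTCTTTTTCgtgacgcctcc
Rps27: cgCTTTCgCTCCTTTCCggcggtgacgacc
Rpl28: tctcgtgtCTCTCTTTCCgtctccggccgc
Rpl15: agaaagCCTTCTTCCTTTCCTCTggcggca
Rps27l: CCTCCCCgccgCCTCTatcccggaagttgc
Rplp0: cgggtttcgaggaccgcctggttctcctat
Rpl10: tacagtggaagataggccgcctatataagg
These windows lie at chr4:86857348-86857377, chr3:90213629-90213658 and chr14:18270967-18270996 on the minus strand, and at chr7:4792955-4792984, chr9:66946076-66946105, chr5:115559457-115559486 and chrX:74270806-74270835 on the plus strand. Of the 79 genes, 58 had a start in the RefSeq table. A tract at the annotated start was found in 13 of these, or 22.4%, against 3.01% of the 27025 genes in the table. Within 10 bases of the start it was found in 36, or 62.1%, against 34.4%. The search read the gene's own strand only. The median log2 fold change with SMARTA was −0.25 in the 13 genes with a tract at the annotated start and −0.28 in the other 45 with a start in the table. The 45 may include genes with a TOP tract whose message begins at another base, so these medians do not compare TOP genes with others.

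Ribosomal protein messages took a slightly smaller share of the counts in OT1 cells from tumours with SMARTA cells, both subunits alike, but no single gene passed the test. Together the members made up 2.05 ± 0.225% of all gene counts without and 1.63 ± 0.264% with SMARTA (mean ± SD, n = 4 and 3). Large subunit genes made up 1.33, 1.37, 1.08 and 1.21% without SMARTA and 1.16, 0.924 and 0.885% with SMARTA, each in the order of the replicates. Small subunit genes made up 0.898, 0.872, 0.693 and 0.768% without SMARTA and 0.771, 0.591 and 0.550% with SMARTA. In both subunits replicates 2 and 3 with SMARTA were the lowest of the 7 libraries, and replicate 1 with SMARTA lay among those without, so that the groups overlap. The mean share with SMARTA minus that without was −0.26 percentage points for the large and −0.17 for the small subunit, and −0.34 and −0.24 without that library.

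The ratio of the subunits overlapped between the groups. Summed large subunit counts were 1.48, 1.57, 1.56 and 1.57 times the small subunit counts in the 4 libraries without SMARTA and 1.50, 1.56 and 1.61 times in the 3 with SMARTA. The means were 1.54 ± 0.0453 and 1.56 ± 0.0538, a difference well inside the spread of either group, and this ratio within a library does not depend on how libraries are scaled.

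**Figure D1:**
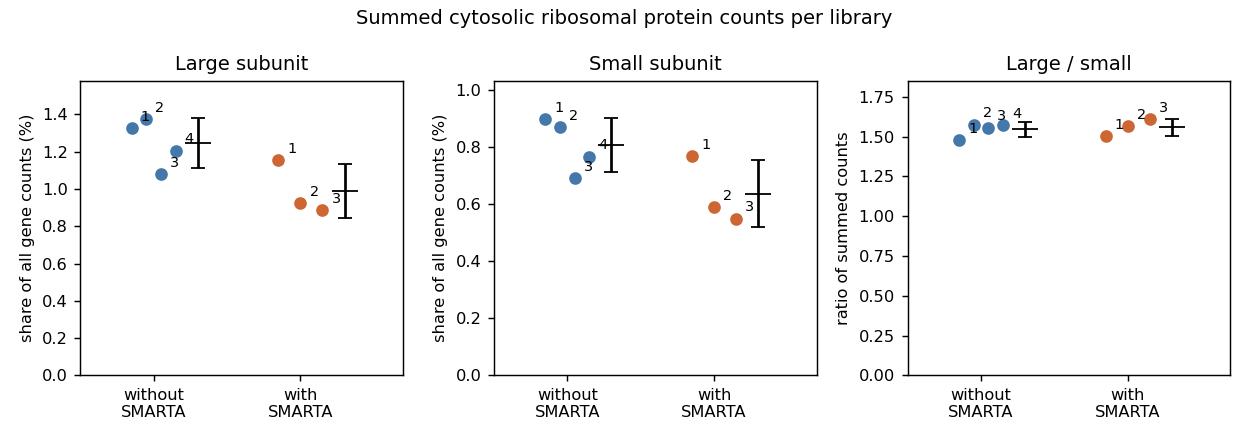
Share of all gene counts (%, left and middle) taken by large and small subunit genes, and the ratio of the sums (right); points are libraries with their replicate number, bars the mean ± SD of 4 libraries without (blue) and 3 with SMARTA (orange). Shares of the large subunit run from 0.885% to 1.37%, lowest in replicates 2 and 3 with SMARTA, while the ratio stays between 1.48 and 1.61.

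Gene by gene, 67 of the 79 members had a lower and 12 a higher level with SMARTA, with libraries scaled by TMM (trimmed mean of M values). None of them was called at a Benjamini-Hochberg adjusted p under 0.05 by the edgeR quasi-likelihood test, where 3.15% of all 15896 genes tested were called (1.52% higher and 1.63% lower). Higher calls were 48.2% of these calls, 29.1% with library totals and 71.6% with scaling to the ribosomal protein sum. At an unadjusted p under 0.05, 13 members passed, 12 lower and 1 higher, beside 9.37% of all genes lower and 9.18% higher. DESeq2 called 7 members, 6 lower and 1 higher, or 8.86% of them beside 10.9% of all genes; limma-voom called 0. The groups did not overlap in 14 members that were lower and 2 that were higher with SMARTA, beside 10.5% and 8.73% of all genes, which amounts to 17.7% and 2.53% of the members. Among the 1814 genes at or above the level of the median member, edgeR called 160. An unadjusted p under 0.05 was found in 38.8% of them, 224 lower and 479 higher, against 16.5% of the members. Their groups did not overlap in 11.5% that were lower and 21.7% that were higher.

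The median log2 fold change was −0.28 over the 47 large subunit genes and −0.26 over the 32 small subunit genes, where it was −0.0034 over all genes tested. Among the 1814 genes at or above the level of the median member it was 0.18, and 39.2% of those genes had a negative value, against 84.8% of the members. Changes were small: 66 of the 79 members lay within 0.5 of 0. The same held for 8431 of the 15896 genes tested and for 1052 of those 1814 genes. The members also varied little within a group, with a median SD of 0.23 log2 units against 0.52 for all genes and 0.29 for the highly expressed genes.

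Most members shared their high and low libraries. In 60 of the 79 the lowest library was replicate 2 or 3 with SMARTA, and in 51 the highest was replicate 1 without SMARTA. Replicate 1 with SMARTA was the highest library for 25 others and lay above the mean without SMARTA in 37 members, where replicates 2 and 3 did so in 5 and 5. The median member lay 0.30, 0.11, −0.078 and 0.13 log2 units from its mean over the 7 libraries in the 4 libraries without SMARTA and 0.065, −0.26 and −0.26 in the 3 with SMARTA.

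**Figure D2:**
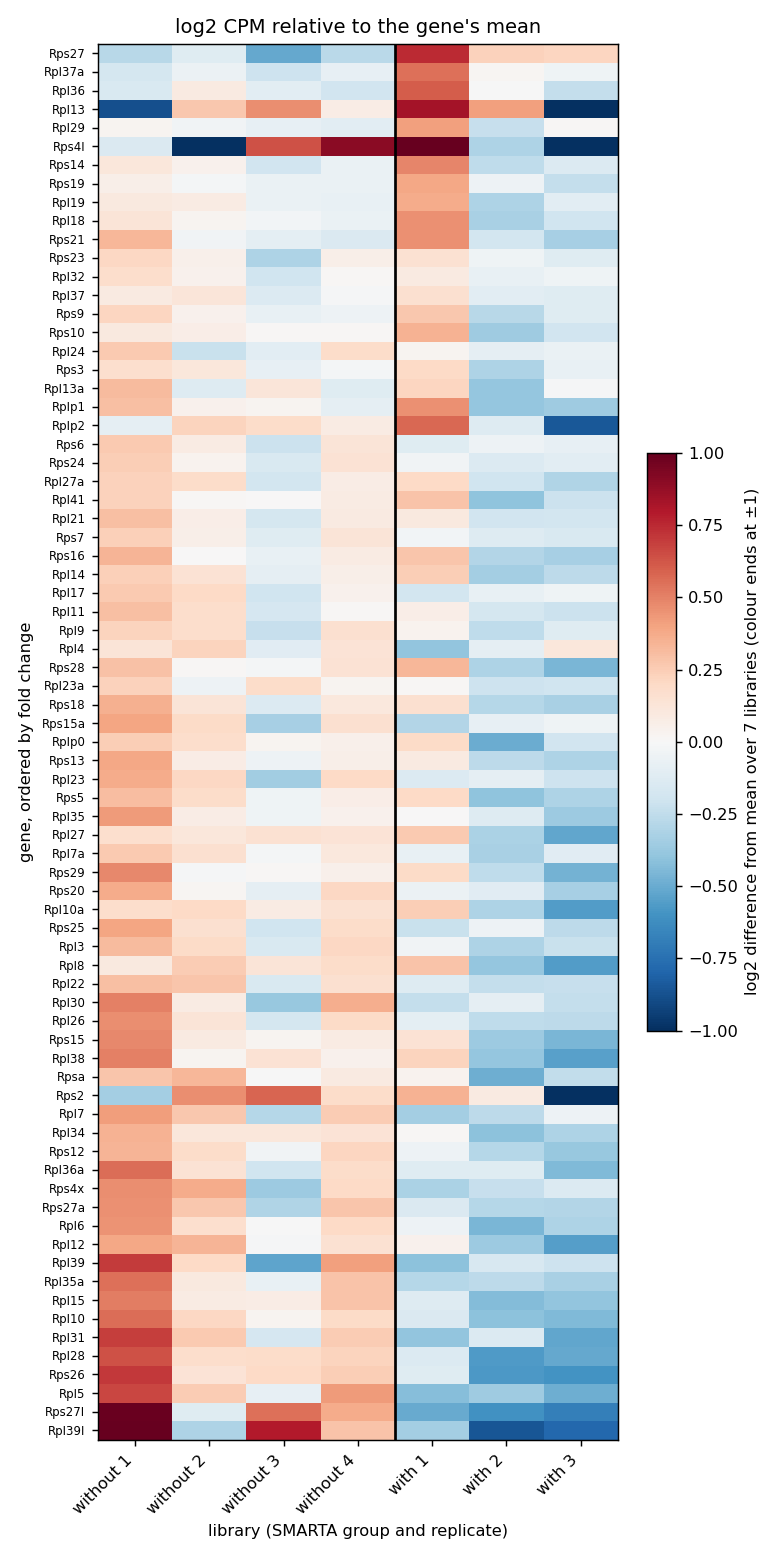
log2 CPM of 75 genes (rows, ordered by fold change), each relative to its own mean over the 7 libraries (columns); red is above and blue below the mean, the colour ends at ±1, and the black line parts the groups. Most rows are blue in replicates 2 and 3 with SMARTA and red in replicate 1 without SMARTA, while replicate 1 with SMARTA is red in the upper rows and blue in the lowest.

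How far the medians lay from 0 depended on the scaling, and the 2 subunits stayed together under each. With relative log expression factors they were −0.28 for the large and −0.26 for the small subunit, with upper-quartile factors −0.31 and −0.29, and with TMM factors computed without any ribosomal protein row −0.28 and −0.26. With plain library totals they were −0.43 and −0.42, but the median of all genes then moved to −0.16, so that relative to it the subunits lay at −0.28 and −0.26. Under library totals 2 of 79 members were called, Rps27l among them, beside 3.53% of all genes. Without replicate 1 with SMARTA the medians were −0.41 and −0.42 and that of all genes −0.10; 1 member was called beside 5.41% of all genes. Leaving out that library moved 41 of the 79 single log2 fold changes by over 1.5 times or turned their sign, 9 of them by sign, so values of single members below rest in part on it. Among members with a value below, it moved Rplp0 from −0.26 to −0.48, Rpl8 from −0.34 to −0.65, Rpl11 from −0.19 to −0.30, Rpl4 from −0.21 to −0.10 and Rps2 from −0.40 to −0.71. For Rpl10a, Rpl38, Rps15 and Rps28 it moved the value to −0.59, −0.67, −0.61 and −0.51. Without replicate 2 or replicate 3 with SMARTA the medians were −0.22 and −0.18, or −0.23 and −0.19.

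**Figure D3:**
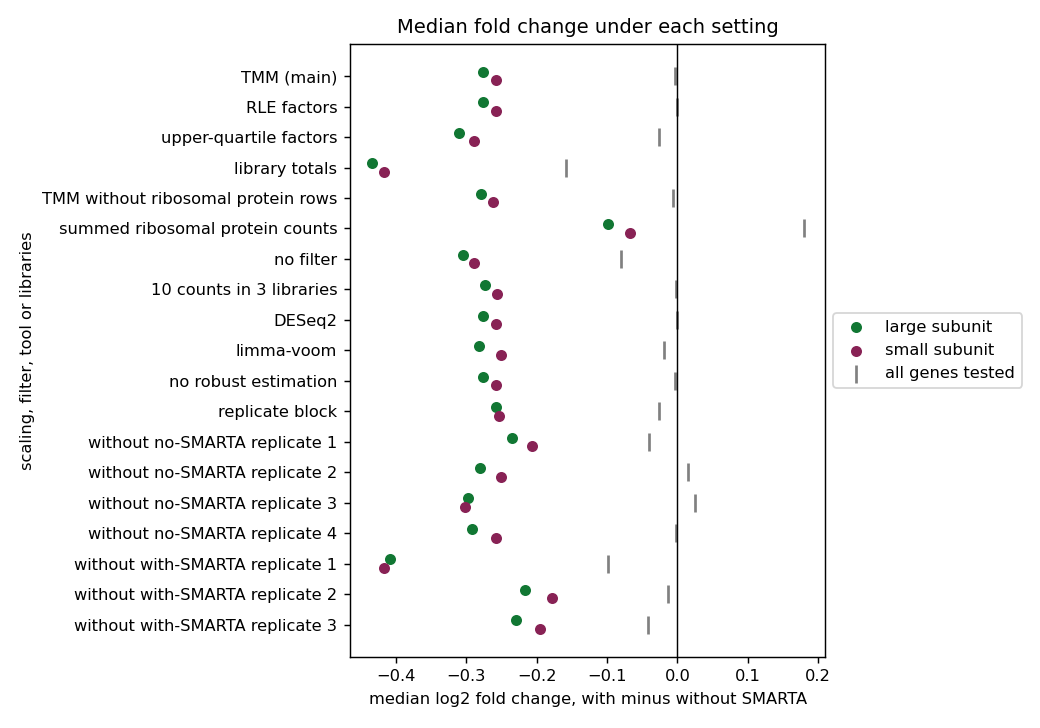
Median log2 fold change, with minus without SMARTA, of large (green) and small (purple) subunit genes and of all genes tested (grey bars) under each scaling, filter, tool and left-out library. Both subunits lie below the grey bar in every row, from −0.43 with library totals to −0.067 when libraries are scaled to the ribosomal protein sum itself.

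The clearest difference within the family was between the paralogs Rps27 and Rps27l, small subunit proteins with a zinc finger. Rps27l is a p53-inducible copy of Rps27. Rps27, on chromosome 3 from 90212522 to 90213651 (GRCm38, minus strand), was at 95.8, 107, 81.4 and 96.2 CPM in the 4 libraries without SMARTA and 195, 136 and 135 CPM in the 3 with SMARTA. All 3 libraries with SMARTA lay above all 4 without (log2 fold change 0.71 ± 0.20, SE; edgeR adjusted p = 0.097).

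Rps27l, on chromosome 9 from 66946086 to 66949516 (plus strand), was at 137, 63.6, 101 and 89.5 CPM in the 4 libraries without SMARTA and 48.7, 45.4 and 43.1 CPM in the 3 with SMARTA. All 3 libraries with SMARTA lay below all 4 without (log2 fold change −1.10 ± 0.27, SE; edgeR adjusted p = 0.0657). Neither passed the test, and their adjusted p ranged from 0.0239 to 0.452 and from 0.00312 to 0.389 over the alternatives. With libraries scaled to the summed ribosomal protein counts, which sets each member against its family, Rps27 was the 1 member called (0.88 ± 0.17, SE; edgeR adjusted p = 0.0473), beside 1.86% of all genes. Rps27l was called with library totals, with DESeq2 and without replicate 2 lacking SMARTA, where 2.56% of all genes were called.

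The ratio of the 2 within a library needs no scaling. There were 0.698, 1.68, 0.805 and 1.07 Rps27 counts per Rps27l count in the 4 libraries without SMARTA and 4.00, 2.99 and 3.13 in the 3 with SMARTA. The groups did not overlap, and the mean log2 ratio differed by 1.74 (0.0051 ± 0.56 SD against 1.74 ± 0.23). The exact permutation test over libraries, two-sided, gave p = 0.0571, the smallest this design allows, and 0.343 after adjustment over the 6 paralog pairs measured. Of the 50-base words in the Rps27 transcripts 46.2% also occur in transcripts of other genes, against 16.2% for Rps27l, so that a larger part of the reads of Rps27 could have been left out as matching several places.

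**Figure D4:**
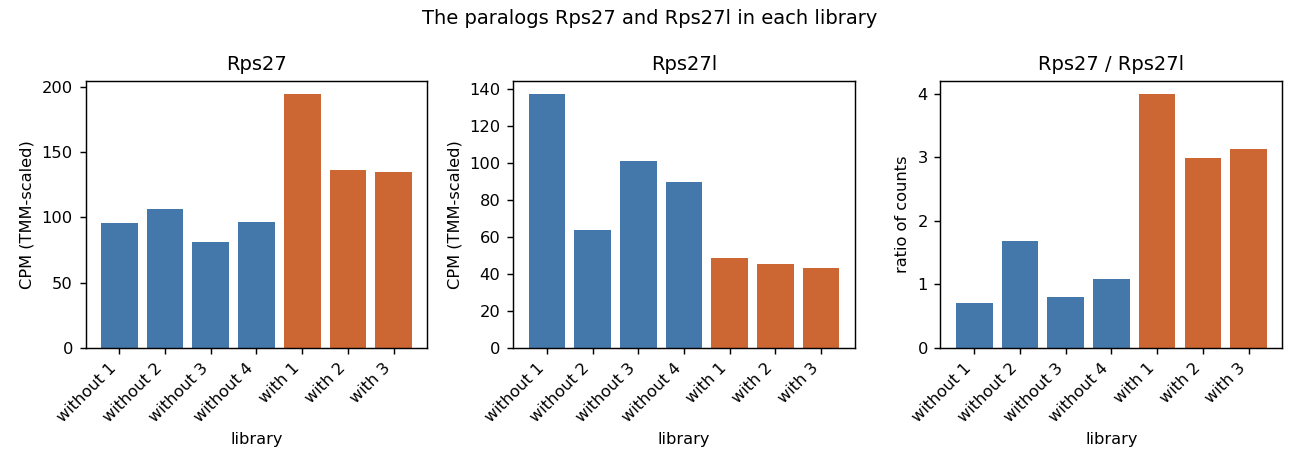
Levels of Rps27 (left) and Rps27l (middle) in TMM-scaled CPM and the ratio of their counts (right) in the 4 libraries without SMARTA (blue) and the 3 with SMARTA (orange); each bar is 1 library. Rps27 bars are all higher with SMARTA and Rps27l bars all lower, and the ratio is at most 1.68 without and at least 2.99 with SMARTA.

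The other paralog pairs overlapped between the groups. Rpl22, an RNA-binding large subunit protein needed for the development of alpha beta T cells in mice, was counted 2.27, 2.82, 3.98 and 2.62 times as often as its paralog Rpl22l1 without SMARTA and 3.45, 2.16 and 2.96 times with SMARTA (exact p = 0.971, permutation test). Rpl36a and its retrocopy Rpl36al stood at a ratio of 1.01 to 1.82 over the 7 libraries, and Rpl7 and Rpl7l1 at 1.38 to 2.67. Rpl39l, a copy of the exit tunnel protein Rpl39 known from testis, was at 0.973, 0.305, 0.711 and 0.485 CPM in the 4 libraries without SMARTA and 0.297, 0.193 and 0.206 CPM in the 3 with SMARTA. The libraries with SMARTA were lower, but these are 7 to 48 counts a library (log2 fold change −1.40 ± 0.70, SE; edgeR adjusted p = 0.335). Rps4l, a row with no protein-coding transcript in GENCODE M21, was at 0.647 to 4.83 CPM over the 7 libraries, with the lowest and the highest both in the group with SMARTA.

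Rpl5, Rps26 and Rpl28 were among the members with the lowest log2 fold changes, and DESeq2 called all 3 (adjusted p = 0.0177, 0.0257 and 0.0252). Their adjusted p over all alternatives ran from 0.0177 to 0.46, from 0.0257 to 0.389 and from 0.0252 to 0.41. Rps26, which lines the channel through which the message leaves the small subunit, was at 153, 103, 108 and 111 CPM in the 4 libraries without SMARTA and 86.1, 63.0 and 61.9 CPM in the 3 with SMARTA. Every library without SMARTA was higher than any with SMARTA, and the highest was replicate 1 without SMARTA (log2 fold change −0.75 ± 0.22, SE; edgeR adjusted p = 0.111). Without a filter on low counts 1 member was called, beside 1.9% of all genes.

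Rpl5 and Rpl11 bind the smallest RNA of the large subunit and, outside the ribosome, the p53 regulator Mdm2. Rpl5, on chromosome 5 from 107900502 to 107909005, was at 151, 114, 90.1 and 128 CPM in the 4 libraries without SMARTA and 70.7, 74.4 and 67.9 CPM in the 3 with SMARTA, log2 fold change −0.77 ± 0.21 (SE; edgeR adjusted p = 0.0923). Rpl11 was at 115, 105, 82.5 and 93.7 CPM in the 4 libraries without SMARTA and 97.2, 82.4 and 80.1 CPM in the 3 with SMARTA, log2 fold change −0.19 ± 0.19 (SE; edgeR adjusted p = 0.66). Rpl5 was separate between the groups and Rpl11 was not; whether the 2 differ in their change was not tested. Of the words of the Rpl5 transcripts 85.4% occur in other genes.

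In the core of the large subunit, Rpl3 and Rpl4 shape the site of peptide bond formation and the start of the exit tunnel. Rpl4 was the most abundant member, also per length, at 2210.2, 2351, 1860.1 and 2213 CPM in the 4 libraries without SMARTA and 1535, 1890.5 and 2187 CPM in the 3 with SMARTA, with no group difference beyond the spread. Rpl3 was at 636 ± 85.3 CPM in libraries without SMARTA and 503 ± 48.4 CPM in those with it (mean ± SD, n = 4 and 3), log2 fold change −0.34 ± 0.17 (SE; edgeR adjusted p = 0.352). Rpl10, which joins late and completes the subunit, was at 355, 278, 245 and 275 CPM in the 4 libraries without SMARTA and 218, 181 and 178 CPM in the 3 with SMARTA; all 3 libraries with SMARTA were below all 4 without (log2 fold change −0.59 ± 0.19, SE; edgeR adjusted p = 0.139). Rpl15 was at 182 ± 26.8 CPM in libraries without SMARTA and 123 ± 14.8 CPM in those with it (mean ± SD, n = 4 and 3) and Rpl28 at 87.1 ± 14.6 CPM in libraries without SMARTA and 53.3 ± 8.97 CPM in those with it (mean ± SD, n = 4 and 3), also without overlap (−0.56 and −0.71; edgeR adjusted p = 0.156 and 0.116). Rpl8 was at 592 ± 28.2 CPM in libraries without SMARTA and 467 ± 152 CPM in those with it (mean ± SD, n = 4 and 3), with 641 CPM in replicate 1 with SMARTA as the highest value of all 7 libraries.

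The stalk proteins Rplp0, Rplp1 and Rplp2 recruit translation factors to the large subunit. Rplp0, often used as a reference gene, was at 1522, 1449, 1307 and 1328 CPM in the 4 libraries without SMARTA and 1467, 909.9 and 1123 CPM in the 3 with SMARTA, log2 fold change −0.26 ± 0.19 (SE; edgeR adjusted p = 0.524). Rplp2 was at 109, 135, 132 and 123 CPM in the 4 libraries without SMARTA and 172, 106 and 64.2 CPM in the 3 with SMARTA; replicates 1 and 3 with SMARTA were the highest and the lowest of the 7 libraries. Rplp1 was at 205 ± 24.5 CPM in libraries without SMARTA and 189 ± 67.7 CPM in those with it (mean ± SD, n = 4 and 3). The groups overlapped for all 3.

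Among small subunit proteins that meet the message, Rps3 lies at the channel where it enters. Rps3 was at 1007 ± 81.3 CPM in libraries without SMARTA and 943 ± 167 CPM in those with it (mean ± SD, n = 4 and 3), and Rps6, which kinases downstream of mTORC1 phosphorylate, at 284, 251, 205 and 259 CPM in the 4 libraries without SMARTA and 218, 229 and 224 CPM in the 3 with SMARTA. Rpsa, also known as a laminin receptor, was at 602, 623, 495 and 526 CPM in the 4 libraries without SMARTA and 508, 354 and 418 CPM in the 3 with SMARTA, log2 fold change −0.40 ± 0.19 (SE; edgeR adjusted p = 0.299). None of these separated the groups. Rps14 and Rps19, linked in humans to anaemias of failed ribosome assembly, were at 539.5 ± 49.2 CPM in libraries without SMARTA and 575 ± 168 CPM in those with it (mean ± SD, n = 4 and 3) and at 319 ± 13.8 CPM in libraries without SMARTA and 338 ± 77.5 CPM in those with it (mean ± SD, n = 4 and 3). Rps27a, made as a fusion with ubiquitin, was at 152 ± 31.5 CPM in libraries without SMARTA and 112 ± 6.61 CPM in those with it (mean ± SD, n = 4 and 3), log2 fold change −0.44 ± 0.21 (SE; edgeR adjusted p = 0.313).

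Several well known members lay close to 0. The log2 fold changes were Rps3 (−0.094), Rps14 (0.093), Rps19 (0.081), Rpl32 (−0.022) and Rpl13a (−0.10), and the sign of each turned under library totals or with 1 library left out. Those of Rpl4 (−0.21), Rps6 (−0.16), Rpl24 (−0.086) and Rps24 (−0.17) turned only with scaling to the ribosomal protein sum, which sets each member against its family. Those of Rps25 (−0.32), Rpl38 (−0.39), Rpl10a (−0.32), Rpl7a (−0.30), Rps15a (−0.26), Rps15 (−0.38), Rps4x (−0.43), Rpl35a (−0.52), Rps28 (−0.22) and Rpl23a (−0.23) kept their sign under all 18. Rps25 and Rpl38 are known for the translation of particular messages, and Rpl24 for a bridge between the subunits. In the edgeR test the adjusted p of all these genes was at least 0.239.

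A total of 12 members lay above 0 on the log2 scale, and 3 of them, Rps27 and Rpl37a included, stayed there in all 7 fits that leave out 1 library. Rpl37a, a large subunit protein, was at 87.8, 95.3, 86.2 and 94.2 CPM in the 4 libraries without SMARTA and 145, 101 and 96.3 CPM in the 3 with SMARTA, log2 fold change 0.33 ± 0.20 (SE; edgeR adjusted p = 0.435). For Rps27 and Rpl37a replicate 1 with SMARTA was the highest library, and without it the log2 fold changes were 0.49 and 0.10. Relative to the median member of each library, Rpl37a was among the members most like Rps27 (Pearson's r = 0.95 over 7 libraries, chosen after the values were seen). The erythroid markers were highest in the same library; their part in these levels was not tested. Rpl36 (0.25), Rpl13 (0.18) and Rpl29 (0.13) lay at −0.042, −0.23 and −0.075 without that library; for all 3 the edgeR adjusted p was at least 0.623 in the fit of all 7.

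Among the 77 members with a mean of at least 5 CPM, Rpl13 and Rps2 varied most between libraries relative to the family. Their variation ran across and not along the groups. Rpl13 was at 169.99, 375, 431 and 328 CPM in the 4 libraries without SMARTA and 555, 413 and 139 CPM in the 3 with SMARTA. Rps2, which lines the entry channel of the message, was at 199, 347, 377 and 287 CPM in the 4 libraries without SMARTA and 321, 267 and 100.4 CPM in the 3 with SMARTA. Both were lowest in replicate 3 with SMARTA and replicate 1 without SMARTA, and the member most like each of them was Rplp2 (Pearson's r = 0.93 and 0.92 over 7 libraries that share scaling and depth). Their log2 fold changes were 0.18 ± 0.46 and −0.40 ± 0.39 (SE). Of their transcript words 80.3% and 56.4% occur in other genes, 15 genes for Rpl13 and 71 for Rps2.

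**Figure D5:**
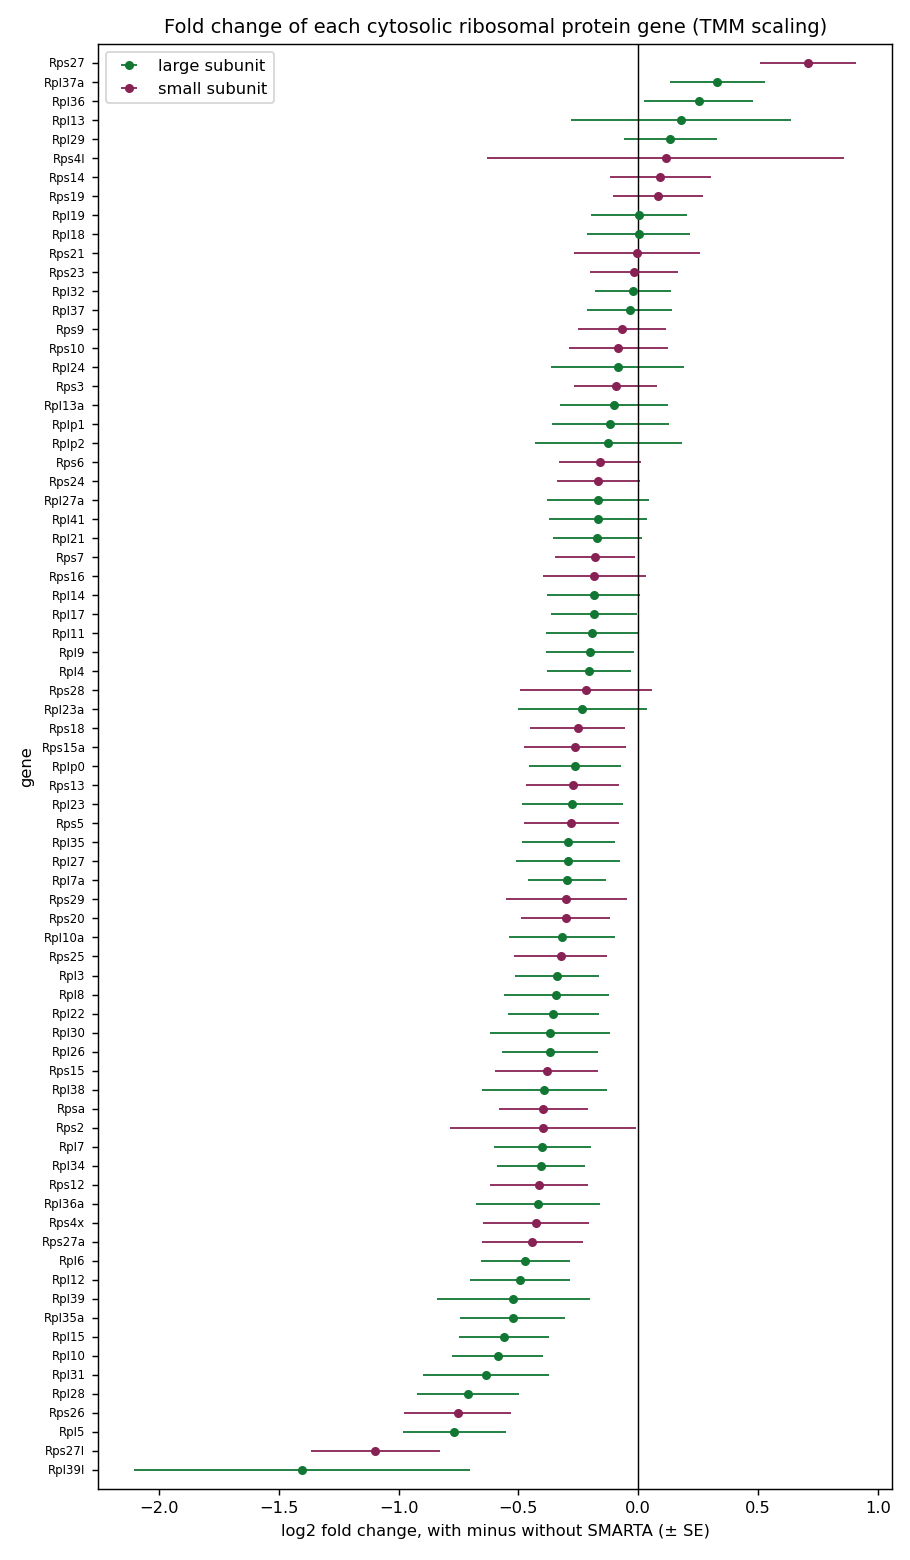
log2 fold change (with minus without SMARTA, ± SE) of 75 genes, large subunit in green and small subunit in purple. Most points lie left of 0, Rps27 lies farthest right at 0.71 and Rps27l, at −1.10, farthest left but for the barely counted Rpl39l.

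Levels per length spanned the family widely. Per kilobase of annotated exon, Rpl4 (1014 CPM per kb), Rplp0 (784) and Rpl32 (582) were among the highest, as means over 7 libraries. Apart from Rpl39l and Rps4l, the lowest were Rpl24 (7.40), Rpl23a (8.50), Rps28 (11.5) and Rpl39 (11.7). Reads that match several places were left out of the counts. Of the words of Rpl24 and Rpl23a transcripts 81.7% and 85.7% occur in other genes. For Rps28 and Rpl39 these shares were 28.7% and 16.5%. The share was 16.5% for Rpl4 and 37.1% for the median of 78 members with a protein-coding transcript. Over these members the level per length did not follow that share (Spearman's rho = −0.016, across genes, which are not independent). The 255 rows named as ribosomal protein pseudogenes held reads equal to 0.688% to 0.791% of the members' counts.

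Ribosomal genes whose names fall outside the rule lay near the members. Of 7 tested, 0 were called by edgeR, beside 3.15% of all genes, and 2, Gnb2l1 and Rpl7l1, by DESeq2, beside 10.9%. Without replicate 1 with SMARTA edgeR called the same 2, beside 5.41%. In the fit of all libraries 5 of the 7 had a negative log2 fold change, with a median of −0.37. Rack1, a scaffold on the small subunit that the files list under its older symbol Gnb2l1, was at 925, 803, 705 and 765 CPM in the 4 libraries without SMARTA and 599.8, 415 and 466 CPM in the 3 with SMARTA. All libraries with SMARTA were below all without (log2 fold change −0.70 ± 0.19, SE; edgeR adjusted p = 0.0859, 0.0184 to 0.389 over the alternatives). Rps3a1, another small subunit gene, was at 434 ± 66.2 CPM in libraries without SMARTA and 337 ± 4.53 CPM in those with it (mean ± SD, n = 4 and 3), log2 fold change −0.37 ± 0.18 (SE; edgeR adjusted p = 0.315), and the paralogs Rpl7l1, Rpl22l1 and Rpl36al had log2 fold changes of −0.58, −0.37 and −0.34. The log2 fold change of Fau, made as a fusion with a ubiquitin-like protein, was 0.17, and −0.076 without replicate 1 with SMARTA.

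Other messages known for a TOP tract, chiefly translation factors, mostly had lower levels with SMARTA too. Of 24 tested 1 was called lower and 0 higher by edgeR, which is 4.17% beside 3.15% of all genes, so this count does not set the list apart; 22 had a negative log2 fold change, and the median was −0.33. The gene called was Hnrnpa1, an RNA-binding protein of splicing, at 169, 97.6, 93.9 and 119 CPM in the 4 libraries without SMARTA and 41.1, 45.8 and 48.3 CPM in the 3 with SMARTA. It fell by 1.41 ± 0.25 on the log2 scale (SE; adjusted p = 0.0294, edgeR, and 2 of the 7 fits with a library left out called it). The snoRNA host Snhg1 had a log2 fold change of −1.11 ± 0.32 and the cytoskeletal gene Vim 0.41 ± 0.22 (SE; edgeR adjusted p = 0.0998 and 0.362).

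Regulators of TOP messages were spread in both directions. Of 19 tested genes of mTORC1 and its targets 0 were called by edgeR, beside 3.15% of all genes, 11 had a positive log2 fold change, and the median was 0.12. The median turned to −0.038 without replicate 1 with SMARTA and to −0.029 with library totals. DESeq2 called 2, Rptor and Myc, beside 10.9% of all genes, and edgeR called Rptor with upper-quartile factors and without a filter. Rptor, the subunit that defines mTORC1, was at 21.2, 46.0, 44.4 and 52.0 CPM in the 4 libraries without SMARTA and 184, 88.9 and 97.8 CPM in the 3 with SMARTA, log2 fold change 1.59 ± 0.36 (SE; edgeR adjusted p = 0.0539), with all libraries with SMARTA above all without. Myc, a transcription factor that drives ribosome production, was at 260.4, 366, 369.9 and 468 CPM in the 4 libraries without SMARTA and 201, 184 and 61.6 CPM in the 3 with SMARTA, log2 fold change −1.30 ± 0.40 (SE; edgeR adjusted p = 0.122), with all libraries with SMARTA below all without. The cap-binding protein Eif4e had a log2 fold change of −0.79 ± 0.26, Larp1 −0.47 ± 0.26 and the elongation factor kinase Eef2k 0.98 ± 0.44 (SE; edgeR adjusted p = 0.142, 0.406 and 0.283). Of 11 tested genes of the p53 pathway, a list not particular to ribosome assembly, 0 were called, beside 3.15% of all genes. Their median was −0.0081 and ran from −0.26 without replicate 3 with SMARTA to 0.24 without replicate 3 lacking it. Zmat3 and Trp53inp1 had log2 fold changes of −0.85 and 1.39, and Trp53inp1 was called by DESeq2 and, in edgeR, without replicate 1 with SMARTA.

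The ribosomal proteins of mitochondria, encoded by other genes, lay in the same range. Of 77 tested 0 were called by edgeR, beside 3.15% of all genes, and 5 by DESeq2, beside 10.9%. In edgeR 61 had a negative log2 fold change and the median was −0.32, against −0.26 over the cytosolic members. Without replicate 1 with SMARTA 2 were called, beside 5.41% of all genes, 71 were negative and the median was −0.48, against −0.41. Their summed counts were 0.499, 0.426, 0.453 and 0.460% without SMARTA and 0.408, 0.323 and 0.267% with SMARTA of all gene counts. All 3 libraries with SMARTA were below all 4 without, where the cytosolic sums overlapped; whether the 2 families differ in their change was not tested.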

How the data were processed

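The 7 libraries were grouped by their titles. Per the labels' protocols, RNA was amplified with the SMART-seq V4 kit and read in pairs; such libraries are primed on poly(A) and carry no strand. STAR 2.6.0c, featureCounts 1.6.2 and GRCm38.p6 are named in the submitters' processing notes. The deposited values are raw counts: per the file headers, featureCounts ran on GENCODE M17 by gene name, in pairs, with no option for strand or for reads matching several places, which are then left out. Ribosomal protein genes have many near-identical processed copies, so each member's count is uncertain in this way.

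Counts were tested with edgeR 4.0.16 in R 4.3.3 (filterByExpr with minimum count 10 and total 15, TMM, robust quasi-likelihood fit, two-sided, no covariate) over 15896 genes. A call is a Benjamini-Hochberg adjusted p under 0.05. All 79 members passed the filter. The coefficient of variation between libraries was 52.9%. Gene CPM are TMM-scaled; shares and marker sums use library totals. DESeq2 1.42.0, limma-voom (limma 3.58.1), other scalings, no filter, a replicate block and leaving out each library were alternatives. Fits were checked on simulated counts. Paralog ratios add 0.5 to each count (scipy 1.17.1). Shared words come from GENCODE M21 transcripts.

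Members, lists and tests were chosen with earlier results of these data known. The rule for named genes takes called members, the 6 highest and lowest by fold change and by level per length, the 6 smallest p, fixed paralogs and members with known roles, and from each other list the 2 highest and 2 lowest. It gave 66 genes, all of which enter the counts over alternatives, including those the text does not describe. Rps2, Rpl15 and Rpl28, and the start sites shown for Rps27, Rpl28 and Rpl15, were added after their values were known. Of the start sites planned, those of Rpl3, Rpsa, Rps19 and Rpl22 are not shown. Protein sequences were not used here. Some genes are not reported here one by one (4 of them members); sums, counts and medians include them, and plots of single members show 75.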

Additional observations from a re-analysis of the deposited data

Results flagged for a closer look

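Rps26, Rps15 and Rpl28 each had replicate 1 without SMARTA far above the other 3 libraries of its group. Rps26 was at 153 CPM there and at 103 to 111 CPM in the others. Rps15, a small subunit protein, was at 223 CPM against 163 to 170.3 CPM. Rpl28 was at 109 CPM against 78.8 to 81.5 CPM. Dixon's test at the 95% level was applied to 74 genes and sums and marked these 3; chance marks about 1 in 20. Without that library the log2 fold changes were −0.65 for Rps26, −0.31 for Rps15 and −0.63 for Rpl28.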

How the results depend on the processing

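The medians of both subunits stayed negative under all 18 alternatives, and with 1 library left out ran from −0.41 to −0.22 for the large and from −0.42 to −0.18 for the small subunit. The difference in share of counts ran from −0.34 to −0.21 and from −0.24 to −0.13 percentage points. In the fit of all libraries and the 7 that leave out 1, 57 of 79 members were always lower and 3 always higher with SMARTA. The number of members called, 0 in edgeR, was 2 with library totals, 1 with scaling to the ribosomal protein sum, 1 without a filter, 7 with DESeq2 and from 0 to 1 with 1 library left out. Over all genes 500 were called, 296 with scaling to the ribosomal protein sum, 1740 with DESeq2 and from 17 to 907 with 1 library left out (65, 398, 98 and 17 without replicates 1 to 4 lacking SMARTA, 907, 37 and 53 without replicates 1 to 3 with SMARTA). Scaling to the ribosomal protein sum by construction sets the members near 0 and moved the median of all genes to 0.18. With the replicate number as a block 0 genes were called, 1631 at an unadjusted p under 0.05; same-numbered libraries did not deviate together (correlations −0.14, 0.026 and −0.27), so the numbers are not taken as pairs. The sign turned at least once in 20 of the 69 named genes, 41 values in all, none of them of a gene that passed the test; 34 in 18 genes are reported here. With scaling to the ribosomal protein sum these were Rpl13a (0.071), Rpl24 (0.11), Rpl32 (0.17), Rpl4 (0.011), Rplp1 (0.034), Rplp2 (0.0056), Rps24 (0.030), Rps3 (0.082) and Rps6 (0.046). With library totals these were Rpl29 (−0.023), Rps14 (−0.064), Rps19 (−0.071), Rps4l (−0.0028) and Snhg12 (−0.12). With limma-voom it turned in Rps4l (−0.076). With 1 library left out, the lowest and highest values were Fau −0.076 to 0.30, Phlda3 −1.18 to 0.24, Rpl13 −0.23 to 0.54, Rpl13a −0.26 to 0.047, Rpl29 −0.075 to 0.27, Rpl32 −0.091 to 0.010, Rpl36 −0.042 to 0.38, Rplp1 −0.47 to 0.031, Rplp2 −0.56 to 0.12, Rps14 −0.19 to 0.23, Rps19 −0.13 to 0.17, Rps3 −0.25 to 0.022, Rps4l −1.03 to 0.51 and Snhg12 −0.12 to 0.23. The cause was not tested. Of 1242 gene values under alternatives 1169 kept direction and side of the threshold. Hnrnpa1 lost its call under the replicate block, scaling to the ribosomal protein sum and 5 of the 7 left-out libraries. A gene not called is not shown to be unchanged.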
